A study of Homo sapiens with 11 samples.

Results

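The miR-200 family and miR-205 are small RNAs best known as repressors of ZEB1 and ZEB2, the transcription factors that switch off epithelial genes. Their 6 mature forms, hsa-miR-200a-3p, hsa-miR-200b-3p, hsa-miR-200c-3p, hsa-miR-141-3p, hsa-miR-429 and hsa-miR-205-5p, were chosen by name. They are 6 of the 2576 mature miRNAs listed in the count tables, and all 6 passed the filter on low counts in both experiments. The study sequenced small RNA from SH-SY5Y, a human neuroblastoma cell line subcloned from SK-N-SH that all-trans retinoic acid (ATRA) turns into neuron-like cells, to ask how oxidative stress changes miRNAs while neurons form. All 11 libraries came from cells given 10 µM ATRA for 7 days. In co-treatment, 10 µM H2O2 was present for those same 7 days in 3 libraries, and 3 controls received ATRA without H2O2. In pre-treatment, 3 libraries came from cells that were kept in 10 µM H2O2 for 3 days and differentiated after it was washed out, and 2 controls were differentiated with no earlier H2O2. The study's methods describe its experiments as biological triplicates, and 2 pre-treatment controls were analysed here. Both experiments rest on 1 tumour cell line, and the study states that such cultures still hold epithelial-like cells that ATRA does not arrest, so fewer cells of a type and less RNA per cell cannot be told apart in these values.

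A mature miRNA guides the silencing complex to messenger RNAs, mostly through its seed, the short stretch after its first base. The miR-200 family and the ZEB factors repress each other, which keeps epithelial cells and mesenchymal cells in separate states, and ZEB factors are also active in migrating neural crest and in neural precursors. miR-200c and miR-141 are known to respond to H2O2 in other cell types, and miR-205 is typical of stratified and glandular epithelia.

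The mature sequences are shown because the family divides by a single base of the seed. In pre-treatment the group means of 4 of the 5 miR-200 miRNAs lay along that division, and miR-429 did not. None of the 4 was past the significance thresholds given below with both controls, and the direction of miR-200b-3p depended on the control used. The sequences are those of RefSeq on GRCh38.p14, found for all 6 miRNAs, and capitals mark the seed, bases 2 to 8.
hsa-miR-200a-3p: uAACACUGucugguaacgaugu
hsa-miR-141-3p: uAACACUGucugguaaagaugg
hsa-miR-200b-3p: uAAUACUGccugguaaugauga
hsa-miR-200c-3p: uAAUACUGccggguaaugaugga
hsa-miR-429: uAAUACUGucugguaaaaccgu
hsa-miR-205-5p: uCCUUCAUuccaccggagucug

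Counted from the 5′ end, miR-200b-3p differs from miR-200a-3p at 4 positions (C4U, U9C, C17U and U22A, with the base of miR-200a-3p first), of which C4U lies in the seed. miR-141-3p has the seed of miR-200a-3p and differs from it by C17A and U22G. miR-200c-3p, which is 23 bases long and the others 22, differs from miR-200b-3p by U11G and A22G over the 22 shared positions, and miR-429 differs from miR-200b-3p at 6 positions, none of them in the seed. Among 2370 human mature sequences in that RefSeq table, the seed AACACUG occurs in 2 and AAUACUG in 3, all of them members of this family, while CCUUCAU occurs in miR-205-5p alone. GC content runs from 36.4% (miR-200b-3p and miR-429) to 54.5% (miR-205-5p).

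The genome holds the 5 miR-200 genes in 2 clusters, which cut across the seeds. On GRCh37, the assembly called hg19 to which the authors aligned their reads, MIR200B (chr1:1102484-1102578), MIR200A (chr1:1103243-1103332) and MIR429 (chr1:1104385-1104467) lie within 1984 bp on the forward strand, with no annotated host gene, and TTLL10 is the nearest coding gene. MIR200C (chr12:7072862-7072929) and MIR141 (chr12:7073260-7073354) lie within 493 bp on the forward strand of chromosome 12, in an intron of the long non-coding RNA MIR200CHG. MIR205 was placed at chr1:209605478-209605587 on the forward strand by matching its RefSeq hairpin, inside the long non-coding RNA MIR205HG, where none of the 15 transcripts that span it has an exon over the mature sequence. Thus miR-200a-3p shares a cluster with miR-200b-3p and miR-429 but a seed with miR-141-3p.

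Totals ranged from 5343953 to 8927582 counts per library (median 7425640), and the pre-treatment controls held 6935876 and 7287066. Levels are given as CPM, read counts scaled to a common library total with TMM factors over all 11 libraries, on which 3 counts lie between 0.331 and 0.502 CPM. The 8 listed miRNAs typical of neurons and neuroblasts were divided in level. miR-375 (12427 to 37792 counts) and miR-128-3p (8016 to 15575) were abundant, followed by miR-7-5p (1731 to 4966) and miR-218-5p (247 to 1162). The rest were low, with 9 to 75 counts of miR-9-3p, 14 to 46 of miR-9-5p and 1 to 11 of miR-181a-5p. The neuronal miR-124-3p had at most 7 counts in any library and was at 0 in 5 of 11. Reads are not independent molecules, so limits and intervals on counts cover counting error only.

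All 6 miRNAs were of low abundance in these neuron-like cells. Together they held between 271 and 1312 counts in a library. miR-200c-3p, with 88 to 226 counts, was the most abundant of the family in all libraries but pre-treatment H2O2 replicates 1 and 3, where miR-141-3p had 143 counts against 126 and 124 against 88, and its mean of 21.6 CPM over the 11 libraries ranked 325 of 2576. miR-141-3p (40 to 143 counts, rank 396) and miR-200a-3p (18 to 95 counts, rank 456) followed. miR-200b-3p had 11 to 41 counts (rank 538) and miR-429 had 6 to 27 (rank 614). miR-205-5p had 10 to 32 counts in 10 libraries and 1007 in pre-treatment control replicate 1. In co-treatment controls the order was miR-200c-3p, miR-141-3p, miR-200a-3p, miR-200b-3p, miR-429 and miR-205-5p, and the ranges over libraries overlapped between miR-141-3p and miR-200a-3p, between miR-200a-3p and miR-200b-3p, and between miR-429 and miR-205-5p. With H2O2 in pre-treatment the order of the group means was miR-200c-3p (15.9 CPM), miR-141-3p (15.4), miR-200a-3p (9.94), miR-205-5p (3.12), miR-200b-3p (2.86) and miR-429 (2.14), with overlapping ranges between miR-200c-3p and miR-141-3p, between miR-205-5p and miR-200b-3p, and between miR-200b-3p and miR-429.

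The passenger arms of the hairpins were close to 0. miR-200a-5p, miR-200b-5p, miR-200c-5p and miR-141-5p had at most 2, 3, 5 and 7 counts in any library. miR-205-3p had 5 counts in pre-treatment control replicate 1 and was at 0 in the other 10 libraries. None of the 5 arms passed the filter, and no fold change is given for them.

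**Figure D1:**
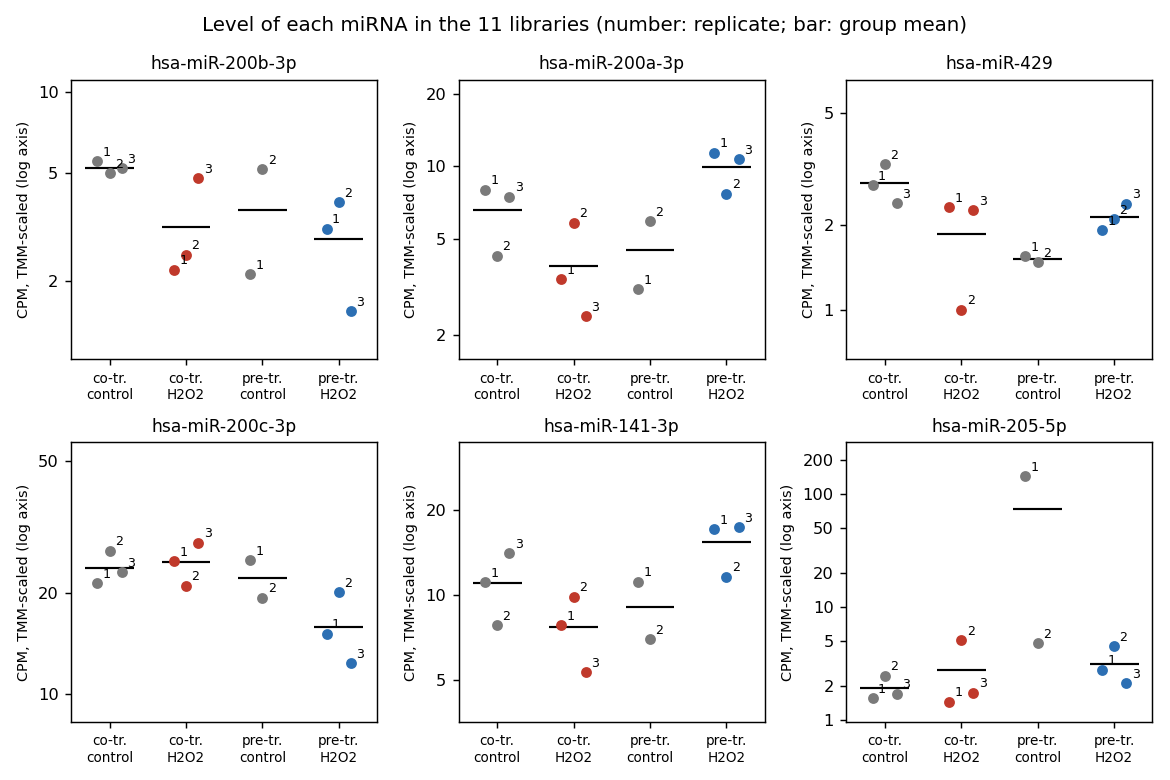
TMM-scaled CPM (log axis) of each miRNA in the 11 libraries, in grey for controls, red for co-treatment H2O2 and blue for pre-treatment H2O2; numbers are replicates and bars are group means. miR-200a-3p, miR-141-3p and miR-429 sit above both of their controls in all 3 pre-treatment H2O2 libraries. Groups did not overlap there for 47.6% of all tested miRNAs. miR-205-5p stands at 142 CPM in a single pre-treatment control against 1.43 to 5.02 CPM in the other 10 libraries.

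H2O2 during differentiation left none of the 6 miRNAs past the thresholds. In co-treatment, 0 of 6 were called by edgeR's exact test (FDR, the Benjamini-Hochberg adjusted p over all tested miRNAs, under 0.05 and absolute log2 fold change above 0.6), where 207 of 790 tested miRNAs, 26.2%, were called (10.6% up-regulated and 15.6% down-regulated). None of the 6 had an unadjusted p under 0.05 by the exact test, where 40.1% of all tested miRNAs had one. The quasi-likelihood test of edgeR also called 0 of 6, beside 181 of 790 miRNAs in all (22.9%), and DESeq2 called 0 of 6. The 3 miRNAs of the chromosome 1 cluster and miR-141-3p had lower means with H2O2, and miR-200c-3p and miR-205-5p had slightly higher ones. The median log2FC of the 6 was −0.57, beside −0.04 over all 790.

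The chromosome 1 cluster gave the lowest fold changes. miR-200b-3p was at 5.55, 5.00 and 5.22 CPM in controls and at 2.21, 2.51 and 4.79 CPM with H2O2. The 3 controls lay close together above all 3 H2O2 libraries, the third of which came near them. The means were 5.26 ± 0.276 (SD, n = 3) and 3.17 ± 1.41 CPM (SD, n = 3), a log2FC of −0.76 (SE 0.39, 95% interval −1.57 to 0.05, FDR = 0.154 by edgeR's exact test). For miR-200a-3p the controls were at 8.01, 4.27 and 7.48 CPM and the H2O2 libraries at 3.42, 5.85 and 2.40 CPM. Control replicate 2 fell among the H2O2 libraries, so these groups overlapped, and the log2FC was −0.78 (SE 0.40, 95% interval −1.62 to 0.05, FDR = 0.150, same exact test).

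miR-429, the third product of that cluster, was at 2.77, 3.29 and 2.40 CPM in controls and at 2.32, 1.00 and 2.26 CPM with H2O2. The groups did not overlap, although the highest H2O2 library was close to the lowest control, and the log2FC was −0.60 (SE 0.46, FDR = 0.346, edgeR's exact test).

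The chromosome 12 pair did not move in step. miR-200c-3p, the most abundant member, was at 21.4, 26.8 and 23.2 CPM in controls and at 24.9, 21.1 and 28.4 CPM with H2O2, with the groups interleaved. Its log2FC was 0.03 (SE 0.27, 95% interval −0.55 to 0.60, FDR = 0.970, edgeR's exact test), the narrowest interval of the 6. miR-141-3p was at 11.1, 7.80 and 14.1 CPM in controls and at 7.84, 9.87 and 5.33 CPM with H2O2, again interleaved, a log2FC of −0.53 (SE 0.33, FDR = 0.265, same exact test).

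miR-205-5p was at 1.54, 2.44 and 1.69 CPM in co-treatment controls and at 1.43, 5.02 and 1.73 CPM with H2O2. Only H2O2 replicate 2 stood above the rest, and the log2FC of 0.44 (SE 0.53, FDR = 0.579, edgeR's exact test) became −0.20 without that library. For 2 of the 6, miR-200b-3p and miR-429, control and H2O2 libraries did not overlap, as for 41.4% of all tested miRNAs.

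Summed over the 5 miR-200 miRNAs, the level was 47.2 to 52.4 CPM in co-treatment controls and 40.3 to 43.1 CPM with H2O2. The chromosome 1 cluster summed to 14.7 ± 1.93 CPM (SD, n = 3) and 8.92 ± 0.845 CPM (SD, n = 3), and the chromosome 12 pair to 34.8 ± 2.38 and 32.5 ± 1.41 CPM (SD, n = 3 each). As a share of the counts of the 5 miR-200 miRNAs, the chromosome 12 pair made up 66.6%, 73.4% and 71.2% in controls and 80.5%, 76.8% and 78.1% with H2O2. These sums and shares are descriptions and were not tested, since the members were brought together with earlier results known.

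Exposure to H2O2 before differentiation gave a different picture. In pre-treatment, 1 of 6, miR-205-5p, was called by edgeR's exact test, as down-regulated, where 133 of 868 tested miRNAs, 15.3%, were called with 47, 5.41%, up-regulated and 86, 9.91%, down-regulated. The quasi-likelihood test called 0 of 6 (17 of 868, 1.96%), and 2 of 6, miR-205-5p and miR-200a-3p, had an unadjusted p under 0.05 by the exact test, as did 28.6% of all tested miRNAs. miR-200a-3p and miR-141-3p, which share a seed, had higher means with H2O2, and miR-200b-3p and miR-200c-3p, which share the other, had lower ones. For 4 of 6, the 2 controls and the 3 H2O2 libraries did not overlap, as for 47.6% of all tested miRNAs. The median log2FC of the 6 was 0.02, beside −0.19 over all 868.

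miR-200a-3p was at 3.11 and 5.92 CPM in pre-treatment controls and at 11.4, 7.71 and 10.7 CPM with H2O2. All 3 H2O2 libraries lay above both controls, and their mean was 3.20 times control replicate 1 and 1.68 times control replicate 2. The group means were 4.52 ± 1.99 (SD, n = 2) and 9.94 ± 1.97 CPM (SD, n = 3), a log2FC of 1.08 (SE 0.44, 95% interval 0.04 to 2.12) that did not pass the adjusted threshold (FDR = 0.171, edgeR's exact test). With control replicate 1 as the only control the log2FC was 1.66 and called (FDR = 0.000335, exact test), and with control replicate 2 as the only control it was 0.69 and not called. In both of these fits the lone control was assumed to vary like the H2O2 libraries, and calls over all miRNAs also became more numerous, 449 of 819 tested with control replicate 1 alone and 285 of 820 with control replicate 2 alone.

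miR-141-3p was at 11.2 and 6.96 CPM in controls and at 17.2, 11.6 and 17.4 CPM with H2O2. The lowest H2O2 library was just above the higher control. The mean with H2O2 was 1.38 times control replicate 1 and 2.21 times control replicate 2, and the log2FC over both was 0.73 (SE 0.37, 95% interval −0.15 to 1.61, FDR = 0.310, edgeR's exact test). Against control replicate 2 alone it was 1.09 and called (FDR = 0.0109, exact test), and against control replicate 1 alone it was 0.46. The 2 controls therefore lay in opposite order for both miRNAs of this seed, control replicate 1 being the lower for miR-200a-3p and the higher for miR-141-3p.

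The 2 more abundant miRNAs of the other seed had no such separation. miR-200b-3p was at 2.12 and 5.18 CPM in controls and at 3.12, 3.92 and 1.55 CPM with H2O2, all within or below the range of the controls. Its log2FC was −0.40 (SE 0.60, 95% interval −1.81 to 1.01, FDR = 0.727, edgeR's exact test), and it was −0.90 without control replicate 1 and 0.43 without control replicate 2, so that its direction depended on which control was used. miR-200c-3p was at 25.2 and 19.4 CPM in controls and at 15.1, 20.2 and 12.4 CPM with H2O2. H2O2 replicate 2 lay between the controls and the other H2O2 libraries below both. The log2FC was −0.52 (SE 0.35, FDR = 0.464, edgeR's exact test), and without control replicate 2 it was −0.67 and called (FDR = 0.0433, exact test).

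miR-429 was at 1.55 and 1.48 CPM in controls and at 1.92, 2.10 and 2.39 CPM with H2O2. The groups did not overlap, but they held 10 and 11 counts against 15 to 17, and the log2FC of 0.45 (SE 0.48, 95% interval −0.68 to 1.58) had an FDR of 0.650 by edgeR's exact test.

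**Figure D2:**
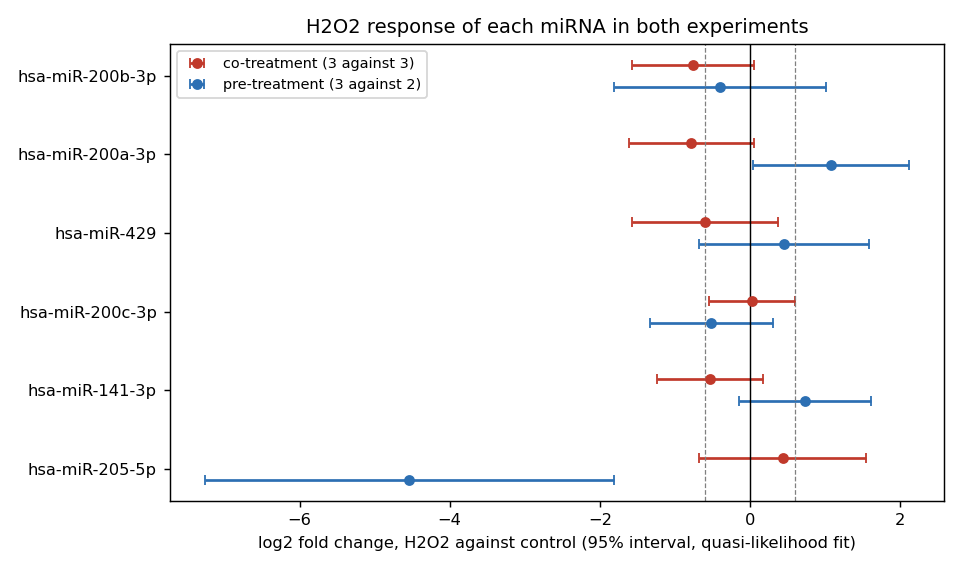
log2 fold change of H2O2 against control for each miRNA in co-treatment (red, 3 against 3 libraries) and pre-treatment (blue, 3 against 2), with 95% intervals from the quasi-likelihood fit; dashed lines mark a log2FC of 0.6 in either direction. All intervals cross 0 except those of miR-200a-3p (0.04 to 2.12) and miR-205-5p (−7.26 to −1.81) in pre-treatment.

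The seeds were also compared as a share of counts within each library, which was not tested. miR-200a-3p and miR-141-3p made up 33.1% of the 5 miR-200 miRNAs' counts in both pre-treatment controls (exact binomial 95% intervals 27.9% to 38.7% and 27.4% to 39.1%). With H2O2 they made up 58.6% (53.7% to 63.5%), 42.5% (37.0% to 48.0%) and 63.3% (57.7% to 68.6%). All 3 H2O2 libraries were above both controls, and H2O2 replicate 2 was nearest to them, its interval overlapping theirs. In co-treatment the same share was 39.1%, 25.6% and 41.2% in controls and 27.6%, 39.0% and 17.9% with H2O2, with no separation of the groups.

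Within each cluster a pair of miRNAs with different seeds was compared as a count ratio, which draws on the same counts as the share. The count ratio of miR-200a-3p to miR-200b-3p, which come from hairpins on the same strand of chromosome 1, was 1.47 and 1.14 in pre-treatment controls and 3.65, 1.96 and 6.91 with H2O2. On chromosome 12, the ratio of miR-141-3p to miR-200c-3p was 0.444 and 0.359 in controls and 1.13, 0.576 and 1.41 with H2O2. Both ratios were above those of the 2 pre-treatment controls in every pre-treatment H2O2 library. The values of pre-treatment H2O2 replicate 2, 1.96 and 0.576, were exceeded in co-treatment. The ratio of miR-200a-3p to miR-200b-3p was 2.33 in co-treatment H2O2 replicate 2. That of miR-141-3p to miR-200c-3p was 0.610 in co-treatment control replicate 3. miR-429, which has the seed of miR-200b-3p, did not follow the division by seed, since its level was higher with H2O2 in pre-treatment. Its count ratio to miR-200b-3p was 0.733 and 0.286 in pre-treatment controls and 0.615, 0.536 and 1.55 with H2O2, where the groups overlapped. No ratio of miR-200a-3p to miR-429 was taken, so on chromosome 1 the comparison of seeds covers miR-200b-3p only. The sum of the 5 miRNAs was 43.1 and 39.0 CPM in controls and 44.4 to 48.8 CPM with H2O2, without overlap, and the chromosome 12 share was 84.3% and 67.7% in controls against 66.3% to 69.8% with H2O2, where the groups overlapped. None of these shares and ratios was tested.

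**Figure D3:**
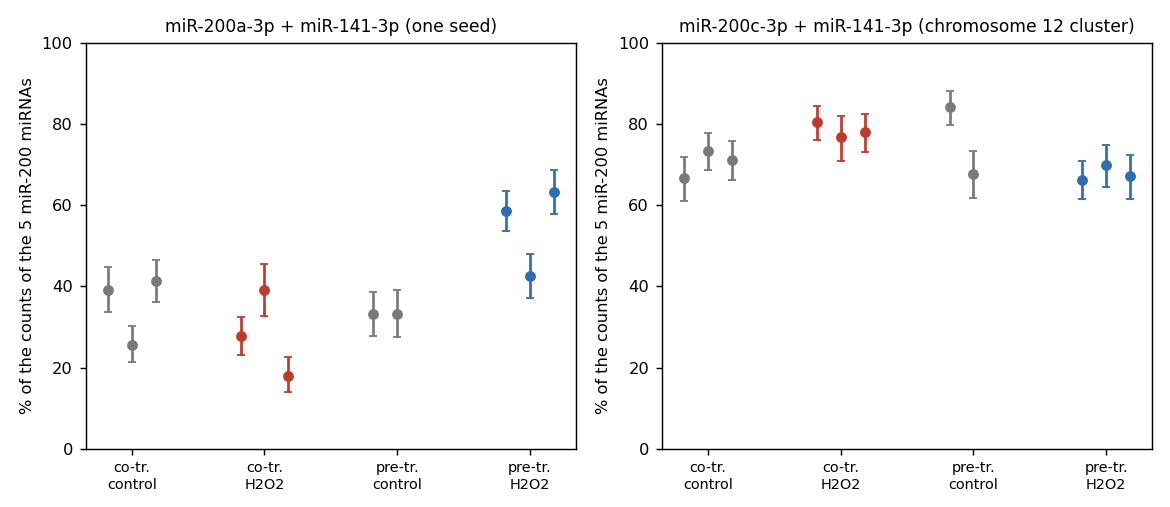
Share of the counts of the 5 miR-200 miRNAs held by miR-200a-3p and miR-141-3p, which have the same seed (left), and by miR-200c-3p and miR-141-3p, which come from the chromosome 12 cluster (right), in each library in replicate order, with exact binomial 95% intervals that cover counting error only. In pre-treatment the seed share is 33.1% in both controls and 42.5% to 63.3% with H2O2.

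miR-205-5p had the second largest absolute log2FC of the 868 miRNAs tested in pre-treatment, and that value rested on 1 library. It was at 142 and 4.74 CPM in the controls (1007 and 32 counts) and at 2.76, 4.48 and 2.11 CPM with H2O2 (23, 32 and 15 counts). Control replicate 1 stood far above the rest, while control replicate 2 was close to the highest H2O2 library. The log2FC was −4.54 (SE 1.15, FDR = 0.00271 by edgeR's exact test), the FDR was 0.0645 by the quasi-likelihood test, and the group means were 73.5 ± 97.3 CPM (SD, n = 2) and 3.12 ± 1.23 CPM (SD, n = 3). Without control replicate 1 the log2FC was −0.66 (FDR = 0.344, exact test), and the mean with H2O2 was 0.658 times control replicate 2. The call was also lost when any of the 3 H2O2 libraries was left out (FDR from 0.0602 to 0.118), and without control replicate 2 it remained with a log2FC of −5.52.

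Other miRNAs stood out in the same control library. Among 444 miRNAs with a mean of at least 50 counts in the 2 controls, miR-205-5p had the fourth largest ratio of control replicate 1 to replicate 2, 30.0, after miR-223-3p (129), miR-1306-5p (40.8) and miR-4443 (35.6) and before miR-6800-3p (22.9), where the median ratio was 0.872. Of the 444, 39 were over 4-fold higher in replicate 1 and 12 over 4-fold lower. miR-223-3p, typical of myeloid cells, had 540 counts in that library and 3 to 35 in the other 10. The 7 listed miRNAs of white blood cells summed to 127 CPM there against 20.9 to 41.8 CPM elsewhere. Of the 127 CPM, miR-223-3p alone made up 76.3 CPM. All 7 were above 0 there, as they were in co-treatment H2O2 replicate 3, where they summed to 32.5 CPM. Among the 7, miR-146a-5p was lower in control replicate 1 than in replicate 2, at 7.49 against 18.5 CPM, and the rest were higher. Of the epithelial miRNAs other than the 6, miR-31-5p had 5 counts in control replicate 1 and at most 1 elsewhere. However, miR-203a had 184 and 183 counts in the 2 controls. The 9 listed summed to 462 CPM in control replicate 1, the lowest of the 11 libraries, with 1 of 9 at 0. The part of any of these in the value of miR-205-5p was not tested. The other 5 members did not stand apart, with ratios of 0.409 (miR-200b-3p) to 1.60 (miR-141-3p).

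**Figure D4:**
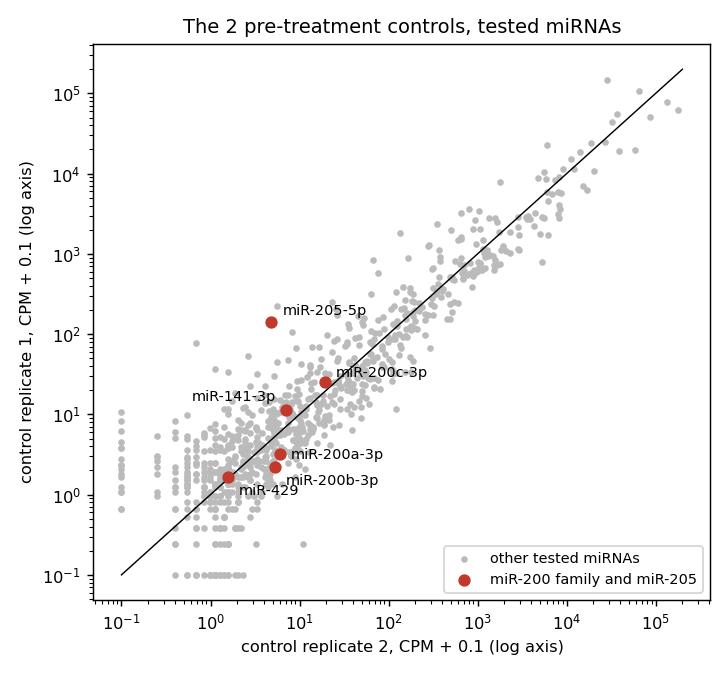
CPM plus 0.1 of the tested miRNAs in pre-treatment control replicate 1 against control replicate 2 (both log axes); red points are the 6 miRNAs, grey points the other tested miRNAs, and the line marks equal levels. miR-205-5p lies at 142 against 4.74 CPM, while the 5 miR-200 miRNAs lie near the line.

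The responses of the experiments were compared directly as an interaction in edgeR's quasi-likelihood model of the 11 libraries. A batch that differed between the experiments and the regimen itself cannot be told apart there. Of 945 miRNAs tested, 258, 27.3%, differed in response, and 2 of the 6 did. For miR-200a-3p the difference, co-treatment log2FC minus pre-treatment log2FC, was −1.91 (SE 0.62, FDR = 0.0316, edgeR's quasi-likelihood test), and this call was lost without pre-treatment control replicate 1 (−1.33, FDR = 0.120), and also without pre-treatment H2O2 replicate 1 or 3, co-treatment control replicate 1 or 3, or co-treatment H2O2 replicate 1 or 3 (FDR from 0.0675 to 0.102). For miR-205-5p it was 5.03 (SE 1.22, FDR = 0.00879, same test), and it was 1.24 (FDR = 0.268) without pre-treatment control replicate 1. miR-141-3p, with the seed of miR-200a-3p, had a difference of −1.29 (SE 0.53, FDR = 0.0852, quasi-likelihood test) that did not pass. The differences were −1.06 for miR-429, −0.38 for miR-200b-3p and 0.55 for miR-200c-3p, with FDR from 0.251 to 0.703, and that of miR-200b-3p was 0.32 without pre-treatment control replicate 1.

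Over the 11 libraries, the log2(CPM + 1) of miR-200a-3p and miR-141-3p, which lie on different chromosomes, had a Pearson correlation of 0.82, and miR-200a-3p and its cluster partner miR-200b-3p one of −0.05. miR-200c-3p ran opposite to both, at −0.85 with miR-200a-3p and −0.74 with its own cluster partner miR-141-3p. The pairs that share the other seed had lower values than 0.82. These were 0.43 for miR-200b-3p and miR-200c-3p, 0.35 for miR-200b-3p and miR-429, and 0.14 for miR-200c-3p and miR-429. These are descriptions over 11 libraries that fall into 4 groups and share their scaling. Among 944 tested miRNAs, those most like miR-200a-3p were miR-101-3p (0.87), miR-340-5p (0.86) and miR-6868-3p (0.86), those most like miR-141-3p were miR-99a-3p (0.92), miR-1307-5p (0.88) and miR-6733-5p (0.86), and those most like miR-200c-3p were miR-299-5p (0.86), miR-323a-3p (0.82) and miR-129-2-3p (0.77). For miR-205-5p they were miR-6758-5p, miR-3187-3p and miR-6784-3p (0.87 to 0.88), and without pre-treatment control replicate 1 these values were 0.27 to 0.45.

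Other miRNAs that are known to repress ZEB or SNAI genes, the wider group of repressors of the mesenchymal programme, included calls in both experiments, where 26.2% (co-treatment) and 15.3% (pre-treatment) of all miRNAs were called. Of 11 listed, 10 were tested, and miR-153-3p had at most 2 counts. In co-treatment 1 was up-regulated, miR-34c-5p, a p53-induced repressor of SNAI1 (log2FC 1.30), and 1 down-regulated, miR-101-3p, a repressor of the chromatin modifier EZH2 as well as of ZEB1 (−0.96, not called without control replicate 3 or H2O2 replicate 1 or 3), and the median was 0.09. In pre-treatment 4 of 10 were up-regulated (5.41% of all tested miRNAs were) and 0 down-regulated, namely miR-34c-5p (1.62), miR-101-3p (1.41), miR-192-5p (1.21), which represses ZEB2, and miR-138-5p (1.03), and the median of the 10 was 0.95. By the quasi-likelihood test 0 of these 4 were called, beside 17 of 868 miRNAs in all (1.96%). Leaving out any one of the 3 H2O2 libraries also gave 0 calls. Calls over all miRNAs numbered 9 without H2O2 replicate 2. Without control replicate 1, 6 of the 10 were called, beside 285 of 820 miRNAs in all, and without control replicate 2 it was 7 of the 10, beside 449 of 819.

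miR-101-3p, the miRNA most like miR-200a-3p, was at 92.3 and 144 CPM in pre-treatment controls and at 283, 281 and 416 CPM with H2O2. In co-treatment it was at 175, 176 and 316 CPM in controls and at 101, 136 and 109 CPM with H2O2. The groups did not overlap in either experiment and lay in opposite order. Its difference in response, −2.41 (FDR = 0.00322, edgeR's quasi-likelihood test), was called, as was that of miR-192-5p (−1.73, FDR = 0.00650), which was at 366 and 404 CPM in pre-treatment controls and at 879 to 940 CPM with H2O2. miR-34c-5p was higher with H2O2 in both experiments, at 5.33 and 6.78 CPM in pre-treatment controls and 18.0 to 20.9 CPM with H2O2, and its difference in response was −0.33 (FDR = 0.631).

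The lists of miRNAs typical of other cell types held some calls, to be read beside the 26.2% (co-treatment) and 15.3% (pre-treatment) of all tested miRNAs called. The 9 epithelial miRNAs other than the 6 summed to 462 and 537 CPM in pre-treatment controls and to 1028 to 1086 CPM with H2O2, of which miR-192-5p was most. Of the 6 tested, 1 (miR-192-5p) was up-regulated in pre-treatment and 0 were called in co-treatment, where the sum was 602 to 1018 CPM in controls and 538 to 620 CPM with H2O2. miR-203a, the epithelial miRNA of skin, was at 26.0 and 27.1 CPM in pre-treatment controls and 42.0 to 43.0 CPM with H2O2 and was not called (log2FC 0.63, FDR = 0.310, edgeR's exact test), and miR-31-5p and miR-31-3p were at or near 0. By the exact test in pre-treatment, the 1 liver miRNA tested, miR-122-5p (log2FC 1.88), 2 of 3 red-cell miRNAs, miR-451a (2.79) and miR-144-5p (2.71), and 1 of 4 muscle miRNAs, miR-1 (1.74), were also up-regulated. There 1 of 5 white-cell miRNAs, miR-223-3p (−4.87, with control replicate 1 far above the rest), and 1 of 7 neuronal or neuroblast miRNAs, miR-375 (−1.32), were down-regulated, and of all these pre-treatment calls only miR-451a was also called by the quasi-likelihood test. In co-treatment, 1 of 3 red-cell miRNAs, miR-486-5p (2.53), was up-regulated, and miR-142-5p (−1.30, 1 of 5 white-cell miRNAs), miR-499a-5p (−1.10, 1 of 3 muscle miRNAs), and miR-218-5p (−0.99) and miR-9-5p (−1.06, with it 2 of 6 neuronal or neuroblast miRNAs) were down-regulated. The quasi-likelihood test also called these 5 except miR-9-5p (FDR = 0.0651). The part of other cell types in the levels of the miR-200 family was not tested.

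The spread between libraries can be set beside counting error. For miR-429, with group means of 10.5 to 20.7 counts, counting alone gives a coefficient of variation of 22.0% to 30.9%, and the measured one was 3.42% to 40.0%. For miR-200c-3p counting gives 7.29% to 9.15% and the measured values were 11.6% to 24.9%. The intervals of the log2FC were widest for miR-205-5p and miR-200b-3p in pre-treatment, whose 2 controls held 1007 and 32 counts and 15 and 35 counts, and not for miR-429, the member with the fewest counts there.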

How the data were processed

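Small RNA libraries (QIAseq miRNA kit, NextSeq 500) were trimmed by the authors with Cutadapt 2.10, aligned to hg19 with Bowtie2 2.4.1 and counted per mature miRNA with HTSeq 0.7.2, per the labels and the study's methods. The deposited counts are not normalized. Use of molecular identifiers and the miRBase release are not given in the sources used here. The authors' deposited comparison tables, made with edgeR 3.6.1, hold log2 fold changes, log CPM, p-values and FDR and were not used. No other pre-treatment control was used here.

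Samples were grouped by their labels. For each experiment, the exact test of edgeR 4.0.16 (R 4.3.3) set H2O2 libraries against controls, with TMM scaling and tagwise dispersion. The tested miRNAs had a CPM above 0.936 in 3 or more co-treatment libraries, or above 0.721 in 2 or more pre-treatment libraries, the CPM that 5 counts make in the smallest library of each. Standard errors and 95% intervals are from the quasi-likelihood fit. The difference between experiments was a quasi-likelihood interaction over miRNAs passing in at least 2 of 11 libraries. The p-values set a difference between groups against the spread between these libraries, which edgeR estimates with information shared across miRNAs. Alternatives were DESeq2 1.42.0, other scalings, filters and log2FC thresholds, a block for the replicate number, and each library left out. The tests were also run on simulated data. A simulated 2-fold change was called by the exact test for 56 of 96 changed miRNAs in co-treatment and 15 of 91 in pre-treatment. The interaction test called 3 of 97. For a 4-fold change these were 90 of 96, 50 of 80 and 40 of 97.

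The 6 members and the lists were chosen with earlier results of these data known. Named besides them are list members, the 3 miRNAs most correlated with each member that averaged at least 5 CPM, and the 5 miRNAs with the largest ratio between the pre-treatment controls. miR-203a and miR-1 were matched by names without an arm. Hairpin positions are from GENCODE on GRCh37, except MIR205, and sequences from RefSeq.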

Additional observations from a re-analysis of the deposited data

Results flagged for a closer look

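Members whose response to H2O2 differed between the experiments by edgeR's quasi-likelihood interaction test numbered 2 of 6, beside 258 of 945 tested miRNAs, 27.3%. For miR-200a-3p the co-treatment log2FC minus the pre-treatment log2FC was −1.91 (95% interval −3.21 to −0.60, FDR = 0.0316), with a log2FC of −0.77 in co-treatment and 1.14 in pre-treatment in that fit of all 11 libraries. All 3 pre-treatment H2O2 libraries were above both of their controls, in an experiment where groups did not overlap for 47.6% of all tested miRNAs. In co-treatment, 2 of 3 H2O2 libraries were below all of their controls. These are the same values that gave the call. This call was lost without pre-treatment control replicate 1 (−1.33, FDR = 0.120) and without any one of 6 other libraries (FDR from 0.0675 to 0.102). For miR-205-5p the difference was 5.03 (95% interval 2.43 to 7.62, FDR = 0.00879), and it was 1.24 (FDR = 0.268) without pre-treatment control replicate 1, the library with 1007 counts. Groups of 2 or 3 libraries were too small to test for single outlying libraries.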

How the results depend on the processing

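No member was called in co-treatment under any of the alternatives run. There, 207 calls became 84 in one fit of both experiments, 111 with the replicate block and 98 to 279 with a library left out, and the up-regulated share of calls, 40.6%, became 50.5% with library size scaling. In pre-treatment, 133 calls became 17 by the quasi-likelihood test, 16 by its robust form, 61 with no low-count filter, 15 with the replicate block and 9 to 449 with a library left out. The 1 member called, miR-205-5p, became 0 by both quasi-likelihood tests and with the block (log2FC −2.96, FDR = 0.0617), and 0 to 3 members were called with a library left out. For the difference between experiments, 258 calls became 115 with the replicate block and 164 to 444 with a library left out, and the 2 members called became 0 with the block (miR-200a-3p −1.92, FDR = 0.0995; miR-205-5p 3.34, FDR = 0.0807) and 0 to 2 with a library left out. Some directions reversed. With a library left out, the co-treatment log2FC of miR-205-5p ran from −0.20 (without H2O2 replicate 2) to 0.78 and that of miR-200c-3p from −0.045 (without H2O2 replicate 3) to 0.23, the pre-treatment log2FC of miR-200b-3p from −0.90 to 0.43 (without control replicate 2), and its difference from −1.17 to 0.32 (without pre-treatment control replicate 1). The pre-treatment log2FC of miR-200b-3p was 0.029 with the replicate block. The causes were not tested. The deviations of same-numbered libraries from their group means had correlations of 0.03, −0.19 and −0.21 in co-treatment, where 1 of 6 libraries correlated best with its own number. In pre-treatment they were 0.27 and −0.04. There the 2 controls deviate from their mean in mirror image, so the pairs are not independent. Groups of 2 or 3 libraries are too small to show whether same-numbered libraries share more than a number. Requiring the filter in every library made the up-regulated share 56.9% in co-treatment. Scaling by library totals, or by the size factors of DESeq2, moved the median log2FC of all tested miRNAs by −0.03 to 0.09, and no member changed direction with either. The mean CPM of each member in each group moved by less than 1 SD with library size scaling. With 2 pre-treatment controls and counts of 6 to 226 for the family, changes of modest size may not be detected.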
